A study of Mus musculus with 12 samples.

Results

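The loci described here are places in the mouse genome where m6A peaks called in every library crowd together. Peaks of 4 deposited lists that shared at least 1 bp were merged into regions, and neighbouring regions with under 10000 bp between them form a locus. A region called in all 4 lists is termed constant, and a locus with 5 or more constant regions is termed a dense (or member) locus. This rule gave 1457 member regions in 251 dense loci, out of 70674 merged regions in 23956 loci. The members made up 14.3% of the 10203 constant regions and 2.06% of all regions. Since the members were chosen by the calls themselves (presence in every list and number per locus), the number, spacing, height and enrichment of their peaks are given as a description, without a test. Differences between the ages in IP tags, control tags and their ratio were tested on tags summed over members. The rule did not compare the ages, but it required calls at both. A locus with too few regions called at 1 age is therefore left out of every age test on members.

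N6-methyladenosine (m6A) is a methyl mark on adenosines inside messenger RNA. The METTL3-METTL14 methyltransferase places it at a preferred sequence context, most often around stop codons and in long internal exons, YTH-domain proteins bind it and influence splicing, translation and decay of the RNA, and FTO can remove it. Marks are often clustered, so one transcript can carry several neighbouring modified stretches, and transcripts with roles in neurons are among those known to carry m6A in brain.

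The study profiled hippocampal RNA of male wild-type C57BL/6 mice aged 2 weeks and 6 weeks, with 2 m6A-IP libraries per age. The m6A-IP method enriches poly(A)+ RNA fragments that an m6A antibody binds, and peaks are stretches where IP tags exceed those of the control, fragments sequenced without selection (the input). By the labels the groups differed in age only, and no treatment or altered allele is labelled for them. Not analysed here were 8 of the 12 samples, among them adult (8 to 12 weeks) wild-type and Fto knock-out hippocampi. Replicates are labelled biological and no animals are named, so p-values measure the spread between these samples only. Whole hippocampus was used, so fewer cells of a type and less RNA per cell cannot be told apart in any level below.

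Values below are listed for 2-week replicates 1 and 2, then 6-week replicates 1 and 2. The lists held 39259, 39105, 33239 and 36494 peaks. IP depth was 23.4, 23.0, 16.1 and 16.5 M tags and control depth 29.3, 16.8, 15.8 and 11.7 M, so the 2-week IP libraries were the deeper ones, and IP depth and age cannot be told apart. As a check for libraries deposited more than once, the replicates of an age were compared over the dense loci. They differed by more than counting noise (chi-square per degree of freedom 45.4 and 76.1 for IP tags and 10.2 and 8.75 for control tags, at 2 and 6 weeks), so all 4 libraries were counted separately. Coordinates are those of the mm9 build. Gene names and sequences were not assigned, since the annotation and sequence tables in hand are of another build, and for the same reason the tissue was not checked against marker genes.

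Dense loci were the far end of a steep distribution. Of the 5709 loci with a constant region, 3272 had 1, 1344 had 2, 582 had 3 and 260 had 4. The 251 dense loci were 4.40% of these and 1.05% of all loci. At the threshold, 151 loci had exactly 5 constant regions, which is 60.2% of the dense loci, and the 260 loci with 4 lay just outside. The upper tail was short, with 23 loci at 8 or more, 2 at 13 and 1 at 18.

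**Figure D1:**
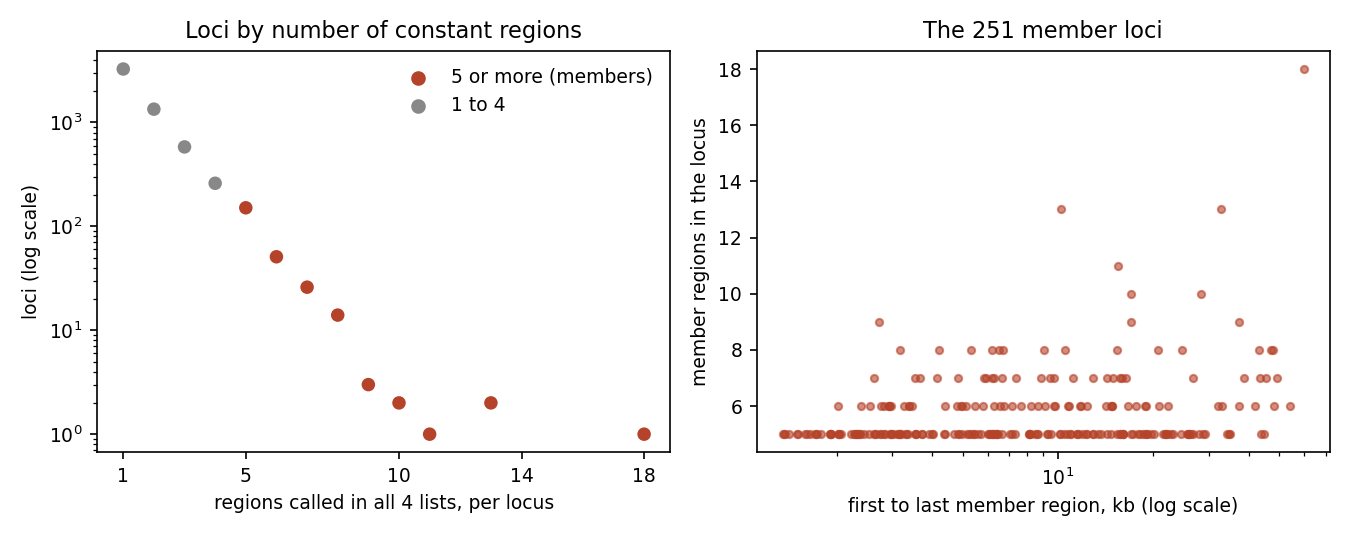
Left, number of loci (log scale) against the number of constant regions they hold, with dense loci in red. Right, member regions per dense locus against the distance from the first to the last member (kb, log scale). Loci with 5 members span almost the whole range of lengths, and the locus with 18 members is also the longest, at 59.7 kb.

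The members lay close together but not evenly. The gap between neighbouring members had a median of 423.5 bp (quartiles 164 and 1689.75 bp, n = 1206 gaps), and 54.7% of gaps were under 500 bp while 13.5% were over 5000 bp. In loci with 2 to 4 constant regions the median gap was 382 bp and 55.8% were under 500 bp, so neighbouring members were spaced about as they were in less crowded loci. The distance from the first to the last member ranged from 1354 to 59703 bp with a median of 7328 bp. By that distance, 89 dense loci were compact (up to 5 kb), 117 measured over 5 and up to 20 kb, and 45 were longer than 20 kb.

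Single members looked like constant regions elsewhere. Their median width was 159 bp (101 to 590 bp), the same as that of the 3272 constant regions that stood alone in their locus. Exactly 1 peak in each list was found in 620 members (42.6%), against 45.5% of the lone constant regions. Over these 620, the starts of the 4 peaks spanned a median of 34 bp, against 32 bp in the other 3957 constant regions with 1 peak per list. The start positions fell within 20 bp of each other in 30.8% of members and 31.4% of the others.

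Member peaks were not the highest in the lists. Their median height was 51.6, 56.6, 45.3 and 34.5 IP tags per 10 M library tags, which was above the lone constant regions (44.8, 47.0, 40.9 and 27.3) in every library. Against constant regions in loci with 2 to 4 (54.6, 58.4, 47.7 and 33.3) the members were lower in 3 libraries and higher in 6-week replicate 2. Their median fold over control, as given in the deposited lists, was 6.24, 6.23, 7.25 and 5.82. Member peaks were 4.71%, 4.87%, 5.79% and 5.52% of the lists and held 8.94%, 9.29%, 8.92% and 8.46% of the IP tags in peaks.

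Dense loci also held many regions that were not constant. Of their 4054 regions, 1457 (35.9%) were called in all 4 lists and 1404 (34.6%) in 1 list only, against 28.0% and 44.1% in the other loci with a constant region. Calls in both 2-week and no 6-week library made up 179 regions (4.42%) and the opposite pattern 72 (1.78%), against 4.96% and 2.08% in the other loci. Another 242 regions were missed in 6-week replicate 1 alone, 166 in 6-week replicate 2 alone, and 77 and 79 in 2-week replicates 1 and 2 alone. Regions called in both libraries of one age and in neither of the other are termed exclusive to that age. A region exclusive to 2 weeks occurred in 105 dense loci, one exclusive to 6 weeks in 60, both kinds in 29 and neither in 115. In 1 dense locus, on chromosome 14 from 79826278 to 79828581, every region was constant (5 of 5).

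The 12 loci with the most members, 8 to 18 each, spanned a wide range of levels. Levels are IP or control tags summed over the members of a locus, per 10 M library tags and per 100 bp of peak. The locus with 18 members lay on chromosome 18 from 37867312 to 37928067 and held 83 regions in all. Its IP level was 38.0, 33.2, 32.2 and 17.9 and its control level 5.22, 4.66, 4.16 and 2.87. Both 6-week libraries lay below both 2-week libraries for IP and for control. Its members were far apart (median gap 2995 bp), and of the further regions there 8 were exclusive to 2 weeks and 1 to 6 weeks. No member carried a large part of the signal. With each member counted by its peak with the most IP tags, the strongest held 15.9%, 13.4%, 13.7% and 14.3% of the sum over members.

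The locus with 13 members on chromosome 14 from 61821734 to 61834045 was more compact, with members over 10.2 kb and a median gap of 288.5 bp. Its IP level was 40.2, 43.2, 42.5 and 30.2, so the ages overlapped, and no region there was exclusive to an age. A second locus with 13 members, on chromosome 18 from 37815689 to 37856548, had IP levels of 34.4, 39.8, 29.9 and 17.1, with both 6-week libraries lower, and 5 further regions exclusive to 2 weeks. The locus with 11 members, on chromosome 9 from 108001607 to 108037664, had IP levels several times higher, at 280, 274, 246 and 229, with the 6-week libraries slightly below.

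Loci with 10 members were found on chromosome 2 from 180393236 to 180424009 and on chromosome 7 from 135007437 to 135036817. The chromosome 2 locus had IP levels of 73.0, 103, 113 and 51.0, with the 6-week replicates on either side of the 2-week ones. The chromosome 7 locus had 39.2, 51.1, 40.6 and 27.2, and the ages overlapped too. In the chromosome 2 locus 1 member, counted by its highest peak, was the strongest in every library. It held 35.3%, 40.8%, 42.4% and 39.4% of the sum of such peaks over members.

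Among the loci with 9 members, that on chromosome 15 from 72628562 to 72641968 was the tightest of the 12, with all 9 within 2.73 kb and a median gap of 108.5 bp. Its IP level was 254, 283, 409 and 187, and the 6-week replicates were again the highest and the lowest. Levels on chromosome 9 from 106760350 to 106799123 were 156, 198, 186 and 111 and overlapped between ages. Chromosome X from 99262977 to 99284119 was the weakest of the 12 at 2 weeks, with IP levels of 16.3 and 19.1, and reached 31.7 and 24.7 at 6 weeks. It was the only one of the 12 in which both 6-week libraries lay above both 2-week libraries.

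The last 3 of the 12 had 8 members. In all, 14 dense loci had 8, and these 3 had the most IP tags of the 14 (mean over libraries, per 10 M library tags). On chromosome 2 from 121121181 to 121138105 lay the strongest of the 12, with IP levels of 692, 1014, 689 and 730 and overlapping ages. Chromosome 18 from 34471722 to 34479717 stood at 526 and 534 at 2 weeks and at 191 and 148 at 6 weeks, with a wide gap between the ages. Chromosome 3 from 89538705 to 89587772 had 130, 167, 142 and 105, again overlapping, and its members were spread over 47.9 kb.

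**Figure D2:**
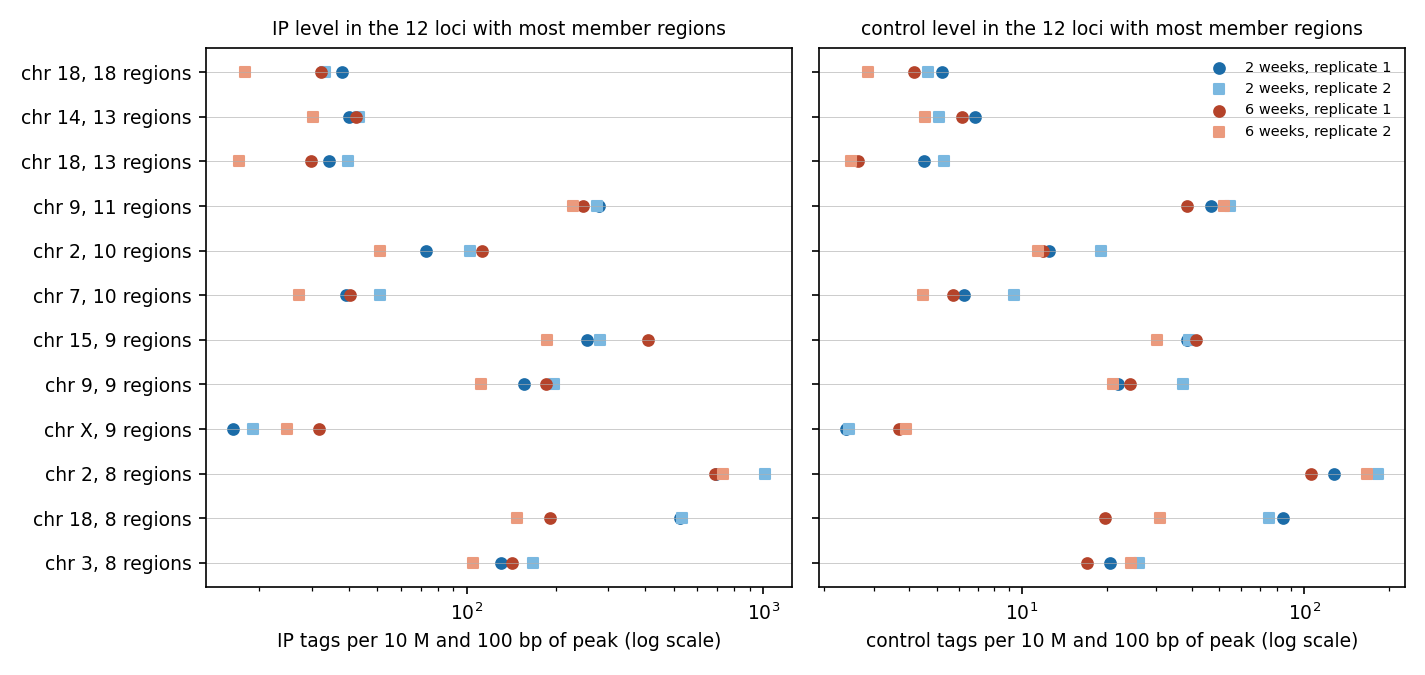
IP level (left) and control level (right), in tags per 10 M library tags and 100 bp of peak on log scales, for the 12 loci with the most members, one point per library. For IP, both 6-week libraries lay below both 2-week libraries in 4 of the 12 loci, above in 1 and overlapped in 7. For control these counts were 5, 1 and 6. Of all 5709 loci with a constant region, 40.6% lay below and 6.2% above for IP, and 52.4% and 5.62% for control, so nothing particular to the 12 is read from these counts.

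Some dense loci were neighbours of each other. With gaps under 200 kb allowed, 10 runs of 2 or more dense loci held 25 of the 251. The longest, singled out after its values were seen, was on chromosome 18 from 37560572 to 37981742, where 6 dense loci held 56 members (3.84% of all) among 277 regions over 421 kb. Of the 277 regions 28 were exclusive to 2 weeks and 1 to 6 weeks. Over all dense loci these shares were 4.42% and 1.78% of regions, and in all other loci 6.53% and 1.93%. Whether the stretch differed from them was not tested. The lists held 245, 241, 145 and 179 peaks in this stretch, fewer in both 6-week libraries, whose lists were also shorter overall. Summed over the constant regions, however, none of its 6 loci passed an age test (smallest adjusted p 0.596 for control and 0.433 for IP tags, edgeR tests described below). A second run, on chromosome 9 from 107947828 to 108120694, held 3 dense loci with 21 members, no region exclusive to 2 weeks and 1 to 6 weeks. By chromosome, 2 held the most dense loci (30, with 175 members). Chromosome 18 had the largest part of its constant regions in dense loci, 25.9%, with 14 loci.

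The members with the most IP tags did not always keep their rank. Each member was counted here by its peak with the most IP tags in a library. Within a dense locus the same member had the most IP tags in all 4 libraries in 79 loci (31.5%), 2 different members led in 127 loci, 3 in 41 and 4 in 4. The order of a locus' members was more alike between the 2-week replicates (median Spearman correlation within loci 0.894, over 251 loci of 5 or more members) than between the 6-week replicates (0.714). The median number of IP tags in a dense locus was 1121, 1278, 823 and 548, so tag number and age cannot be told apart here. In the 151 loci with 5 members the leading one held a median of 34.2%, 34.6%, 39.0% and 31.4% of the sum over members. With 5 members an even spread would put 1 in 5 tags in each, so the signal was uneven but seldom confined to 1 member.

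Over all 251 dense loci the median IP level was 65.5, 72.1, 66.7 and 41.2, ranging from 8.10 to 2201 in 2-week replicate 1. By the mean of the 4 libraries the strongest was on chromosome 1 from 179374244 to 179380845, with 6 members over 2.92 kb and IP levels of 2201, 1912, 1256 and 666. Its control level was 319, 298, 132 and 106, and both 6-week libraries were lower in both fractions. In 6-week replicate 2 the highest level was the 730 on chromosome 2 from 121121181. By the same mean the weakest was on chromosome 1 from 58440533 to 58443863, with 8.10, 14.8, 16.8 and 12.1. The median IP level was 73.6, 65.4, 66.7 and 41.6 in compact loci and 63.5, 76.1, 69.4 and 44.0 in those over 20 kb. Loci with 5 and with 4 constant regions, on either side of the threshold, had similar median IP levels too (63.5, 62.5, 62.0 and 38.0 against 60.9, 68.4, 61.7 and 36.4).

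Enrichment, the ratio of IP to control tags each scaled to its library's depth, differed more between the 6-week replicates than between the ages. Its median over dense loci was 6.42, 6.46, 8.49 and 5.59. In 185 of 251 loci 6-week replicate 1 had the highest ratio of the 4 libraries, and in 154 loci 6-week replicate 2 had the lowest. Both 6-week libraries were above both 2-week libraries in 42 loci (16.7%, against 20.5% of all 5709 loci with a constant region) and below in 12 (4.78%, against 7.57%). The ages overlapped in the other 197.

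**Figure D3:**
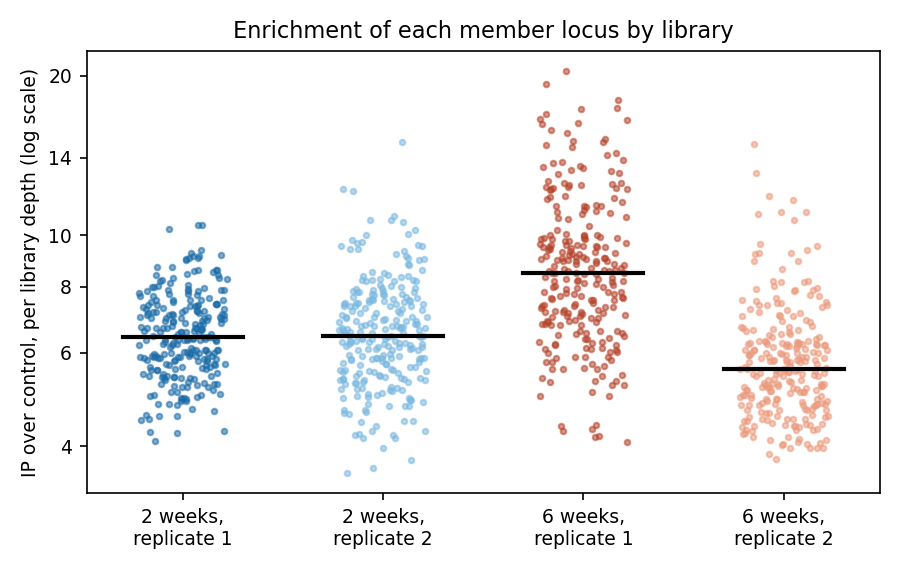
IP over control, scaled to library depth (log scale), of each of the 251 dense loci in each library, with the median as a black bar. The medians are 6.42 and 6.46 at 2 weeks and 8.49 and 5.59 at 6 weeks, so the 6-week replicates lie on either side of the 2-week ones.

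Whether enrichment differed between the ages was tested with edgeR's quasi-likelihood test of the interaction of fraction and age, fitted on all 5546 loci with enough control tags. A Benjamini-Hochberg adjusted p under 0.05 was required here and in the tests below. No dense locus passed in either direction, and neither did any other locus (0% called). At an unadjusted p under 0.05 there was 1 dense locus and 163 loci in all. DESeq2 and limma-voom also called 0, with 0 and 0 dense loci and 28 and 181 of all loci at an unadjusted p under 0.05. Few loci reached that p in any of these fits, so 0 calls are not read as unchanged enrichment. The median change of dense loci, as log2 of 6 over 2 weeks, was -0.04, against 0.01 over all loci tested, with a median standard error (SE) of 0.32 per dense locus. Members had to reach a fold of at least 3 in every list, so a locus whose regions fell below that at 1 age could not be a member.

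The 3 dense loci nearest to passing upwards had few control tags at 6 weeks. The locus on chromosome 2 from 82096448 to 82099718 (6 members) had ratios of 7.37, 6.56, 15.0 and 11.1, higher in both 6-week libraries, with a log2 change of 0.75 ± 0.37 (SE) that did not pass (edgeR, adjusted p = 0.999). Its control tags numbered 123 and 95 at 2 weeks and 30 and 23 at 6 weeks. On chromosome 9 from 57100969 to 57109533 the ratios were 7.27, 6.37, 15.6 and 7.04, overlapping between ages. On chromosome 1 from 3191887 to 3206847 they were 7.19, 5.88, 11.9 and 9.28.

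Nearest to passing downwards was the locus on chromosome 9 from 89836643 to 89869225, with ratios of 6.75, 5.15, 4.08 and 4.05 and a log2 change of -0.62 ± 0.31 (SE). On chromosome 5 from 34332433 to 34344148 the ratios were 7.06, 7.30, 7.30 and 3.87, with 6-week replicate 2 alone low. There 1 of 5 members held 78.7%, 81.4%, 75.0% and 83.2% of the sum over members, each counted by its highest peak. On chromosome 19 from 3804357 to 3817956 they were 7.37, 6.54, 5.77 and 5.09.

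The amount of RNA from the dense loci, read from the control tags over their members, did differ with age in some. With edgeR and an offset for peak width, 13 dense loci rose (5.18%) and 2 fell (0.797%) between 2 and 6 weeks. Over all 5546 loci tested, 1.68% rose and 1.51% fell, so the share that rose was above the background and the share that fell was below it. The difference between dense and other loci was not tested. The dense loci also had smaller standard errors (median 0.32 against 0.45 over all loci). Their median log2 change was 0.10, against -0.03 over all, and 44 had an unadjusted p under 0.05 (17.5%, against 15.7% of all).

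These directions are relative to the bulk of loci. Scaled to total tags alone, the control level was lower in both 6-week libraries in 145 dense loci (57.8%, against 52.4% of all loci), higher in 15 (5.98%, against 5.62%) and overlapping in 91. On that scale the median log2 change of all loci was -0.57, and 4 dense loci passed as higher (1.59%, against 0.433% of all) and 39 as lower (15.5%, against 12.0%). DESeq2 called 2 dense loci (0.797%, against 0.811% of all) and limma-voom 12 (4.78%, against 2.52%). Over regions with exactly 1 peak in each list, 5 of 240 dense loci rose (2.08%, against 1.47% of all) and 1 fell (0.417%, against 1.38%). Without the width offset only the locus on chromosome 6 described next passed (0.398% of dense loci, against 0.216% of all). The count rested on single libraries too, and it changed whenever 1 library was left out.

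The largest rise was on chromosome 6 from 135663299 to 135683679, in a locus with 5 members over 3.72 kb. Its control level was 13.02 and 7.45 at 2 weeks and 28.7 and 55.9 at 6 weeks, and its IP level 83.7, 49.0, 213 and 262. The ages did not overlap in either. The log2 change was 2.59 ± 0.32 (SE) for control tags (edgeR, adjusted p = 6.50e-10) and 2.31 ± 0.41 for IP tags (adjusted p = 0.0437). It passed the control test under every alternative run, with changes from 1.95 to 3.18, which held for none of the others named here.

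On chromosome 7 from 28300611 to 28330292 lay 5 members with control levels of 2.75, 8.43, 10.4 and 13.2 and IP levels of 28.7, 38.9, 144 and 63.2. Both 6-week libraries were higher in each fraction. Its log2 change was 1.72 ± 0.36 (SE) for control tags (edgeR, adjusted p = 0.000942) and 1.95 ± 0.32 for IP tags (adjusted p = 0.0424). The control call held with total tags, DESeq2 and limma-voom. It was lost over regions with exactly 1 peak in each list (0.85, edgeR, adjusted p 0.289) and without the width offset (1.37, adjusted p 0.164). Over those single-peak regions the IP call was lost as well (1.42, edgeR, adjusted p 0.0775). Without 2-week replicate 1, the lowest library, the control change was 1.14 and the adjusted p 0.379.

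In 2 further loci the call rested on a replicate far from its partner. The locus on chromosome 9 from 89836643 to 89869225 (7 members) had control levels of 1.48, 20.4, 24.4 and 27.3 and IP levels of 9.98, 105, 99.6 and 111, so 2-week replicate 1 alone was low. The control change was 1.88 ± 0.35 (SE; edgeR, adjusted p = 0.000226), and without that library 1.00 (adjusted p = 0.432). The locus on chromosome 9 from 3000037 to 3038236 (6 members among 72 regions) had control levels of 16.7, 16.3, 4.49 and 68.5 and IP levels of 68.5, 88.6, 19.7 and 381, with the 6-week replicates on either side of the 2-week ones. Its control change was 1.75 ± 0.36 (SE; edgeR, adjusted p = 0.000764), but without 6-week replicate 2 it was -1.38 (adjusted p = 0.0209), the opposite direction, and DESeq2 gave an adjusted p of 0.749. The lists held 60, 40, 6 and 78 peaks in that locus, so its peak number followed the same libraries.

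The 4 other named loci that rose changed less. On chromosome 5 from 14669064 to 14682325 the control level was 12.0, 8.37, 12.9 and 18.6, and the log2 change 1.18 ± 0.30 (SE). On chromosome 5 from 37540463 to 37570818 it was 4.17, 5.88, 5.02 and 12.8, where the ages overlapped and 6-week replicate 2 alone was high. On chromosome 3 from 88604914 to 88636389 it was 5.36 and 5.04 at 2 weeks and 8.60 and 8.33 at 6 weeks, the closest replicates of the 4. On chromosome 3 from 154425269 to 154430531 it was 3.57, 6.37, 7.32 and 8.74. None of the 4 passed with total tags, with DESeq2 or without the width offset. All 4 lost the call when either 2-week library was left out (adjusted p 0.0617 to 0.579), and 3 of them without 6-week replicate 2 (0.102 to 0.610). The locus on chromosome X with 9 members had control levels of 2.39, 2.44, 3.68 and 3.91, with little spread within each age. It passed as well (1.21 ± 0.34 SE, edgeR, adjusted p = 0.0259), also with limma-voom (adjusted p 0.0349). With total tags (0.65, edgeR, adjusted p 0.221) and with DESeq2 (adjusted p 0.0675) it did not. Nor did it pass over regions with exactly 1 peak in each list (edgeR, adjusted p 0.333) or without the width offset (0.0998). The call was lost without either 2-week library or without 6-week replicate 2, with changes of 1.29, 1.16 and 1.10.

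Lower at 6 weeks was the locus on chromosome 18 from 34471722 to 34479717, with 8 members. Its control level was 84.1 and 74.9 at 2 weeks and 19.7 and 31.0 at 6 weeks, and the change -1.08 ± 0.28 (SE; edgeR, adjusted p = 0.0142). Its IP tags changed by -1.23 ± 0.33 (adjusted p = 0.0881), which did not pass. The control call was lost without 2-week replicate 1 (adjusted p 0.454), 2-week replicate 2 (0.0819) and 6-week replicate 1 (0.222). The other was on chromosome 7 from 112893838 to 112929125 (6 members), with control levels of 6.88, 12.9, 3.76 and 1.33 and a change of -1.30 ± 0.37 (SE; edgeR, adjusted p = 0.0283). Regions exclusive to 1 age numbered 4 at 2 weeks and 1 at 6 weeks there, and its call was lost without 2-week replicate 1 (0.0955), 2-week replicate 2 (0.496) or 6-week replicate 2 (0.244). The next lowest p was on chromosome 6 from 22944452 to 22964935, with control levels of 41.0, 29.4, 12.5 and 13.1 and an adjusted p of 0.0655, which did not pass.

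**Figure D4:**
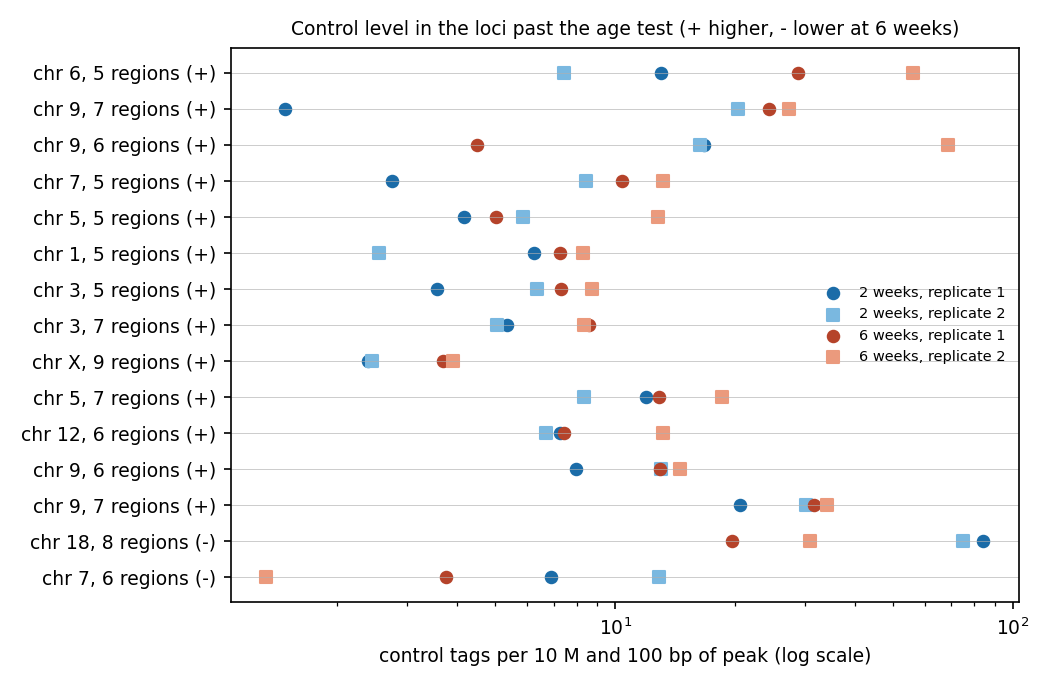
Control level (tags per 10 M library tags and 100 bp of peak, log scale) in each library for the 15 dense loci past the age test, marked + where higher and - where lower at 6 weeks. The loci were chosen by the test, so how the ages lie in them is a description. In 2 loci on chromosome 9 a single library lies far from its replicate.

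IP tags over the members moved much as the control tags did, and fewer loci passed. The edgeR test on IP tags called 2 dense loci as higher (0.797%, against 0.105% of all 5709 loci tested) and 0 as lower (against 0.0701%). They were the loci on chromosome 6 and chromosome 7 whose control tags also rose. The chromosome 6 call was lost without 2-week replicate 2 (1.92, adjusted p 0.0831) and the chromosome 7 call without 2-week replicate 1 (1.81, adjusted p 0.117). Leaving out 6-week replicate 1 instead gave 14 dense loci higher and 3 lower (6.77%, against 5.99% of all loci), and leaving out 6-week replicate 2 gave 16 and 11 (10.8%, against 14.9%). At an unadjusted p under 0.05 there were 36 dense loci in either direction (14.3%, against 18.2% of all). DESeq2 called 5 higher and 1 lower (2.39%, against 2.75% of all) and limma-voom 2 and 0 (0.797%, against 0.228%). Next by p among the loci that were higher was that on chromosome 3 from 154425269 to 154430531, with IP levels of 19.3, 37.3, 89.5 and 39.1 and an adjusted p of 0.0632. Among those that were lower, chromosome 18 from 34471722 and chromosome 7 from 112893838 were followed by chromosome 11 from 3539985 to 3550403 (-0.88, adjusted p 0.147), none passing. By depth alone, the IP level was lower in both 6-week libraries in 109 dense loci (43.4%, against 40.6% of all), higher in 13 (5.18%, against 6.2%) and overlapping in 129.

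Across the 251 dense loci the control and IP changes had a Pearson correlation of 0.894, as a description over loci that share the same 4 IP libraries and their controls. Over all loci tested in both it was 0.665. The dense loci had smaller standard errors (median 0.32 against 0.45 over all loci for control, 0.31 against 0.38 for IP). The difference in correlation was not tested, and no tighter link in dense loci is read from it. The sign was the same in 205 of 251 loci (81.7%, against 77.0% of all loci). All 15 loci past the control test had an IP change of the same sign. This was not counted over all loci past that test, so nothing particular to dense loci is read from it. The median size of the log2 change in these 15 was 1.30 for control tags, 1.15 for IP tags and 0.22 for their ratio. They were chosen by their control change, so these sizes are a description and are not compared.

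**Figure D5:**
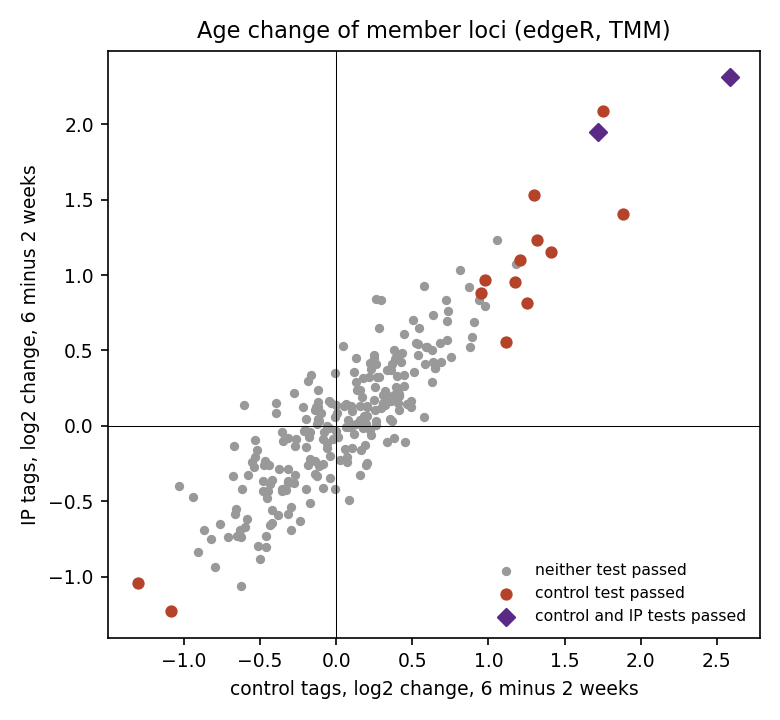
Log2 change from 2 to 6 weeks of IP tags against that of control tags for the 251 dense loci (edgeR with TMM scaling), coloured by the tests passed. The points follow the diagonal (Pearson correlation 0.894), and both loci past both tests are at the upper right.

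Within a dense locus, the test asked whether a region's share of the IP tags differed with age. It used regions with exactly 1 peak in each list in loci with 2 or more of them, 568 members in 191 dense loci out of 2081 regions in 883 loci. With edgeR's test of a region against its locus, 1 member rose (0.176% of those tested, against 0.0961% of all) and 0 fell (against 0%). At an unadjusted p under 0.05 there were 24 of the 568 members and 89 of all 2081 regions, about the same share. The version of the test in limma also called 1 member. The member was on chromosome 1 from 134495357 to 134495488, in a dense locus with 5 members over 34.1 kb. Its IP tags numbered 33, 45, 59 and 43, which was 2.32%, 2.21%, 7.70% and 10.2% of those in the 3 tested regions of its locus. The log2 change relative to its locus was 1.95 (adjusted p = 0.0454), and the starts of its peaks spanned 31 bp. The call was lost without 2-week replicate 1 (adjusted p 0.966) or 2 (1.00).

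The next members by p did not pass. On chromosome 2 from 84565965 to 84566088 the share of the 3 tested regions was 28.2% and 14.8% at 2 weeks and 6.73% and 5.68% at 6 weeks (adjusted p = 0.188). On chromosome 17 from 45576272 to 45576417 it was 15.5%, 19.3%, 51.4% and 33.3% (adjusted p = 0.480). On chromosome 13 from 100191843 to 100191992, a member with 440 or more IP tags in every library, it was 35.2%, 33.9%, 20.2% and 10.7% (adjusted p = 0.489). On chromosome 2 from 30815913 to 30816055 it was 3.17%, 4.59%, 10.95% and 6.44%, and on chromosome 4 from 141023907 to 141024050, among 6 tested regions, 12.4%, 9.93%, 3.69% and 6.16% (adjusted p = 0.692 for both). None of the 5 passed.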

How the data were processed

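The m6A peaks of 4 IP libraries (2 weeks and 6 weeks, 2 each) were analysed. The submitters' processing notes name HOMER, Cufflinks 2.2.1, TopHat2 2.0.13 and 2.1.1, Bowtie2 2.2.3 and the build mm9. Caller options and the control library of each list: not given in the sources used here. Per the file headers each list holds IP and control tags, of which the authors scaled one to the depth of the other. Deposited whole-number counts (IP, 2-week replicate 1), estimated counts (control, with 0.5 for no tag) and scaled signal were turned back into whole tags, which came out whole within 0.2 tag for 100% of values to 3 digits. The deposited fold (ratio over control) was at least 3, and the deposited p-value at most 8.32e-05. The authors' focus fraction and caller score were not used. Library depths assume that the deposited normalized signal was scaled to 10 M tags, HOMER's default.

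Tags were summed over the constant regions of each locus. Control sums rounded to whole tags and IP sums were tested with edgeR 4.0.16 (R 4.3.3, quasi-likelihood, TMM, at least 10 tags over the 4 libraries, offset for summed peak width) on all loci with a constant region, and shares within loci with its splicing test. Benjamini-Hochberg adjustment ran over all loci or regions. Alternatives were DESeq2 1.42.0, limma 3.58.1, total-tag scaling, no low-count filter, single-peak regions, all repeated starts, a replicate block and each library left out. The scripts were tested on simulated data. Loci named are the 12 with most members and, for each test, those past 0.05, up to 8 per direction by p, or the 3 of smallest p where fewer than 3 passed. The members, lists and tests were chosen with earlier results of these data known. Gene and cell type marker lists drawn up for the loci were not used, since the loci carry no gene names.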

Additional observations from a re-analysis of the deposited data

How the results depend on the processing

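With 2 libraries per age, calls depended on single libraries and on scaling, and the cause was not tested. The members numbered 943 regions in 163 loci when peaks had to share 50 bp, 2497 in 511 with 4 or more constant regions, 702 in 100 with 6 or more, and 0 in 0 when peaks had to reach 8-fold. Leaving out each library gave 1683 to 2714 regions in 281 to 439 loci. Dense loci called on control tags (13 higher, 2 lower) became 4 and 39 with total-tag scaling, 2 and 0 with DESeq2, 5 and 1 with single-peak regions, 5 and 2 with all repeated starts, and 1 and 0 without the width offset. With a library left out they were 3 to 17 higher and 0 to 2 lower. Those called on IP tags (2 higher, 0 lower) became 0 higher with total-tag scaling, with all repeated starts or without the width offset. The last of these fits was chosen after seeing the data. With DESeq2 they became 5 and 1 (2.39%, against 2.75% of all loci). With a library left out they were 1 to 16 higher and 0 to 11 lower. The 1 member called within its locus became 0 with total-tag scaling and with peak starts within 20 bp, and 0 to 1 with a library left out. No alternative called a dense locus on the ratio. Of the values of single named loci, 574 kept direction and side of the threshold, 72 no longer passed, 16 newly passed and 52 changed direction. The 1 of these that passed a test was the control change on chromosome 9 from 3000037, which ranged from -1.38 without 6-week replicate 2 to 2.68 without 6-week replicate 1. The other 51 passed in neither fit, and their log2 changes were at most 0.49 in size under the alternative, so no direction is read from these loci. With total tags the IP and control changes were -0.20 and -0.16 on chromosome 14 from 61821734, -0.22 and -0.17 on chromosome 9 from 108001607, -0.10 and -0.44 on chromosome 2 from 180393236, -0.25 and -0.38 on chromosome 9 from 106760350, -0.27 and -0.19 on chromosome 2 from 121121181, and -0.27 and -0.17 on chromosome 3 from 89538705. There the control change was -0.49 on chromosome 18 from 37867312 and -0.12 on chromosome 15 from 72628562, and the ratio change 0.046 on chromosome 9 from 106760350, 0.027 on chromosome X from 99262977 and 0.026 on chromosome 18 from 34471722. With single-peak regions the IP and control changes were -0.090 and -0.17 on chromosome 2 from 180393236 and -0.10 and -0.053 on chromosome 9 from 106760350, the control change -0.24 and the ratio change 0.22 on chromosome 18 from 37867312, and the ratio change -0.036 on chromosome 1 from 3191887 and -0.27 on chromosome 15 from 72628562. Without the width offset the control change was -0.12 on chromosome 18 from 37867312 and -0.074 on chromosome 2 from 180393236, and the IP and control changes 0.11 and 0.052 on chromosome 7 from 135007437. With a library left out, IP changes ranged from -0.32 to 0.022 on chromosome 18 from 37867312, -0.096 to 0.48 on chromosome 9 from 108001607, -0.012 to 0.45 on chromosome 2 from 180393236, -0.13 to 0.11 on chromosome 7 from 135007437 and -0.22 to 0.55 on chromosome 2 from 121121181. Control changes ranged from -0.16 to 0.25 on chromosome 18 from 37867312, -0.059 to 0.39 on chromosome 2 from 180393236, -0.23 to 0.19 on chromosome 7 from 135007437, -0.059 to 0.54 on chromosome 9 from 106760350 and -0.043 to 0.74 on chromosome 2 from 121121181. Ratio changes ranged from -0.46 to 0.076 on chromosome 14 from 61821734, -0.18 to 0.37 on chromosome 2 from 180393236, -0.11 to 0.20 on chromosome 7 from 135007437, -0.0071 to 0.13 on chromosome 15 from 72628562, -0.30 to 0.13 on chromosome 9 from 106760350 and -0.33 to 0.14 on chromosome 18 from 34471722. The depth limits the control side most, with as few as 7 control tags in a dense locus in 6-week replicate 2.

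The replicate numbers are shared between ages without a label that pairs them, and the deviations of same-numbered libraries had correlations of 0.01 (IP) and 0.04 (control) across loci. With the replicate block, 12 dense loci were higher and 3 lower on control tags (5.98%, against 3.21% of all loci), 14 of 15 the same loci. On IP tags 9 were higher and 3 lower (4.78% of dense loci, against 5.04% of all loci), and 0 members were called within their locus.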
